A study of Homo sapiens with 8 samples.

Results

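The genes described here are 38 genes of glycolysis and of the cellular response to low oxygen, followed in HCC4006 and HCC827, 2 human lung adenocarcinoma lines whose EGFR carries an activating mutation. They were chosen by name: a gene was taken where its symbol stood in the gene field of the deposited expression tables, and 38 of 38 were found among 48405 rows. Each line was measured as a passage control in DMSO, the solvent, and as a population adapted to gefitinib, an EGFR inhibitor, and kept in medium with 3 µM of it, so resistance and the presence of the drug cannot be told apart. All 4 groups grew in RPMI-1640 with fetal bovine serum, and each had 2 libraries, which the tables call A and B. Whether the libraries A and B of a group are separate cultures is not stated in the labels, so every p-value below is set against a spread that could be technical.

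Glycolysis splits glucose into pyruvate. Glucose enters through SLC2A transporters and is trapped by hexokinases, the phosphofructokinase step sets the flux, and lactate dehydrogenase turns pyruvate into lactate, which leaves through SLC16A3. When oxygen falls, the prolyl hydroxylases of the EGLN family stop marking the alpha subunits of the hypoxia-inducible factors (HIF) for degradation by VHL, and HIF then raises many of these enzymes together with genes for blood vessel growth, pH control and removal of mitochondria. Cancer cells often run glycolysis with oxygen present, and in EGFR-mutant lung cancer cells EGFR signalling is known to support it.

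HIF binds a short core, ACGTG or GCGTG, on either strand. These letters were searched in the 250 bases before each annotated start in RefSeq (build GRCh38.p14). Of the 38 genes, 33 had an entry. The core stood before at least 1 start in 27 of the 33 genes, and in 36 of their 60 windows, against 43.2% of all 35116 windows. The genes' windows were also richer in G and C, with a mean GC content of 65.7% against 57.2%. Of all 27305 genes, 47.4% had a match before a start. The 33 genes had more windows a gene, 60 against 35116 for all 27305, and so more places for a match. A match is only a run of letters and says nothing of binding. SLC2A1, PGAM1, PKM2, LDHB, EGLN3 and P4HA2 had no match in these windows. 5 windows are shown: that of the aldolase ALDOC, whose change differed between the lines, and those of 4 textbook HIF targets, the enzymes LDHA and PGK1, the carbonic anhydrase CA9 and the peptide hormone ADM. They lie at chr17:28576896-28577145 (minus strand, ALDOC), chr11:18394313-18394562 (plus, LDHA, 1 of its 2 starts), chrX:78103998-78104247 (plus, PGK1), chr9:35673678-35673927 (plus, CA9) and chr11:10304823-10305072 (plus, ADM). Each is written 5′ to 3′ towards the gene, with the core in capitals. CACGT and CACGC are the core read from the other strand, and CACGTG holds it on both strands at once, counted as 2 overlapping matches.
ALDOC: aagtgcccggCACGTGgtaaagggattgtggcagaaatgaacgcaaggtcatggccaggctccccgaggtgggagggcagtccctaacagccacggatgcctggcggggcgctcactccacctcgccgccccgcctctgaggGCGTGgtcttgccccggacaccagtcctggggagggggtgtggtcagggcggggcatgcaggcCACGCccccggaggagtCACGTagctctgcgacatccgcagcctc
LDHA: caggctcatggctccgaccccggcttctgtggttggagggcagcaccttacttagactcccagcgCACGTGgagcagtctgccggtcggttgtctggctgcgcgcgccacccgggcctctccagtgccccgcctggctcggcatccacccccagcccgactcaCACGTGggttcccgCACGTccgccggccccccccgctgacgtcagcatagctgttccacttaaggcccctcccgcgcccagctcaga
PGK1: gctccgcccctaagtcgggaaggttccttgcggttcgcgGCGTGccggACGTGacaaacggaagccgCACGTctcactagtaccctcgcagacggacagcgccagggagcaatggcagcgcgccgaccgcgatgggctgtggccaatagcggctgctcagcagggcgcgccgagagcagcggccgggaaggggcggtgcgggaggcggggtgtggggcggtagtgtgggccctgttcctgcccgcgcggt
CA9: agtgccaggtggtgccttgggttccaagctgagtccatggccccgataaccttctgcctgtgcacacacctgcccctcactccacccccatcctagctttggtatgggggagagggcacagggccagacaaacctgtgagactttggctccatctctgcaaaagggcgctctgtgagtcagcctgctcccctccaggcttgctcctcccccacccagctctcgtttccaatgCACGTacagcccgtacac
ADM: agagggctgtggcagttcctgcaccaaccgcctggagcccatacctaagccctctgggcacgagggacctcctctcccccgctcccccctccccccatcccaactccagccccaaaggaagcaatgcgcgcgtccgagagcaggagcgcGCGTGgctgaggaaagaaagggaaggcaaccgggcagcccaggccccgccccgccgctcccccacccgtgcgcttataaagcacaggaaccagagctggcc
ALDOC and LDHA had 5 matches each and PGK1 had 3, while CA9 and ADM had 1 each, that of CA9 lying 18 to 14 bases before the start.

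Levels are in FPKM (fragments counted per kilobase of a transcript, relative to all fragments of that library), so levels of different genes can be set side by side. The median of all values above 0 was 53.6 to 59.0 FPKM a library, which is high for this unit, so the authors may have scaled the values further. Depth is unknown, because these tables hold no counts, and no counting interval can be given. The 38 rows held between 1.17% and 2.79% of all FPKM in a library, the lowest share in HCC4006 DMSO library A and the highest in HCC827 resistant library B. Of the 38 genes, 31 were above 0 in all 8 libraries. The other 7 (PFKFB3, PFKFB4, PDK1, CA9, NDRG1, BNIP3L and C7orf68) were listed at 0 somewhere. A listed 0 can be a failed estimate in these tables: PDHA1, a subunit of pyruvate dehydrogenase that cells need to burn pyruvate, was listed at 0 in all 8 libraries. Rows listed at 0 in both libraries of a group but averaging at least 50 FPKM elsewhere numbered 684 for HCC4006 DMSO, 214 for HCC4006 resistant, 724 for HCC827 DMSO and 252 for HCC827 resistant. Epithelial markers such as KRT8 and KRT19 were present in all groups, but EPCAM, CDH1, KRT19 and NKX2-1 fell in resistant HCC4006 (limma adjusted p from 0.000781 to 0.019). CDH1 went from 1518 and 945 FPKM in HCC4006 DMSO to 3.03 and 3.29 in the resistant culture. The list of 7 epithelial and lung markers summed to 9506 and 15845 FPKM in HCC4006 DMSO and to 1802 and 1629 in resistant HCC4006. In HCC827 it summed to 11414 to 20148. Its KRT18 row, on chromosome 4 and shared with AC108867.2, had at most 0.878 FPKM. The defining immune and endothelial genes PTPRC, CD3E and CDH5 were listed at 0 in all 8 libraries. The 6 fibroblast markers summed to 13.4 to 122 FPKM and the 3 endothelial ones to at most 1.76. Of the fibroblast markers, PDGFRB, on a row shared with AC005895.3, rose in resistant HCC4006 by 3.63 on the log2 scale (limma adjusted p = 0.0385). It had 2.57 and 0.764 FPKM in DMSO and 21.9 and 26.2 in the resistant culture. The immune list summed to 325 to 1188 FPKM, of which CD68, a lysosomal gene, held 264 to 1122 FPKM and CSF1R, a macrophage receptor, 10.8 to 66.0. CSF1R fell in resistant HCC4006 (limma adjusted p = 0.012). In a separate fit over the rows above 0 in every HCC4006 library, neither PDGFRB nor CSF1R passed, and 3 epithelial markers did. The part of these marker changes in the results below was not tested.

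GAPDH, ENO1, PGK1, PKM2, LDHB, ALDOA and TPI1, all enzymes of the pathway, were among the 8 most abundant of the 38 genes in all 8 libraries. GAPDH, the dehydrogenase that feeds the ATP-forming steps, was first in all 8 libraries, with 15707 to 34471 FPKM. ENO1, the main enolase, had 7463 to 18658 FPKM, and PGK1, which makes the first ATP, had 7359 to 19144. LDHB, the lactate dehydrogenase subunit that favours pyruvate, had 4798 to 20089 FPKM, and LDHA, the subunit that favours lactate, had 2075 to 12087. PKM2, an older name of the pyruvate kinase gene PKM and not here an isoform, had 3058 to 14993. The main aldolase ALDOA had 4562 to 14642 FPKM and TPI1, which interconverts the 2 triose phosphates, 3481 to 19261, while PGAM1, the mutase after PGK1, had only 300 to 892. GPI, a further glycolytic enzyme, had 729 to 2345 FPKM. The transporter SLC2A1 was between 1362 and 3268 FPKM and the lactate exporter SLC16A3 between 828 and 1898. The 2 hexokinases among the 38 genes were lower, HK1 at 235 to 757 FPKM and HK2 at 133 to 227. HKDC1, a hexokinase gene outside the 38, had 1123 and 240 FPKM in HCC4006 DMSO and 332 and 309 in resistant HCC4006. In HCC827 it had 141 to 159. Many of these enzymes (GAPDH, PGK1, PGAM1, ENO1, LDHA, TPI1) have processed pseudogenes, and how the authors' counting divided shared reads is not given in the sources used here.

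**Figure D1:**
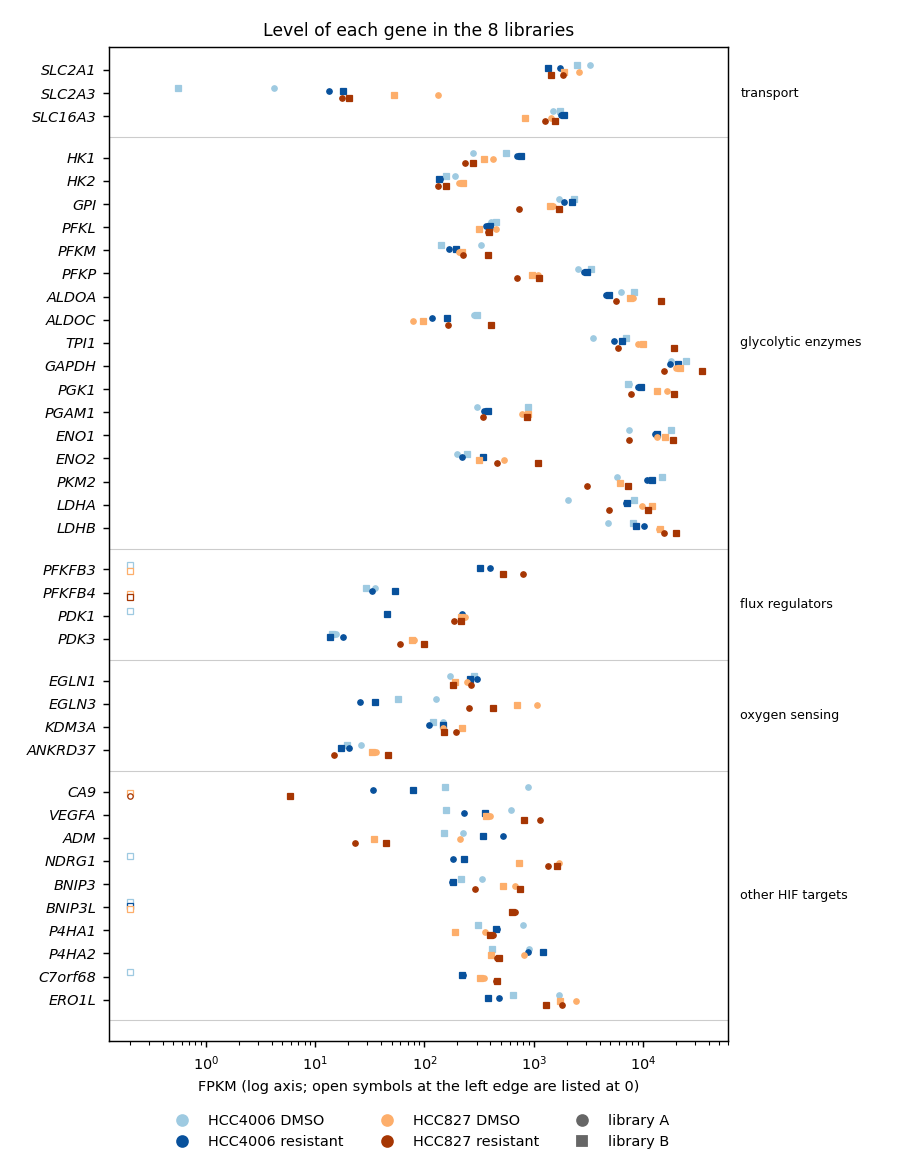
FPKM of each of the 38 genes (rows, grouped by role) in the 8 libraries, on a log axis. Colours are the 4 groups, circles library A and squares library B, and open symbols at the left edge are values listed at 0, where A and B coincide. GAPDH lies furthest right in every library.

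The 2 libraries of a group differed from each other for these genes, and in HCC4006 DMSO in opposite ways for enzymes and for the other HIF targets. There, 14 of 17 glycolytic enzymes were higher in library B, with a median log2 difference, A minus B, of -0.46. LDHA was at 2075 FPKM in A and 8224 in B, ENO1 at 7503 and 17997, PKM2 at 5811 and 14993, and PGAM1 at 300 and 877. All 7 of the other HIF targets above 0 in both of these libraries were instead higher in A, by a median log2 of 1.37, or 2.58-fold. CA9, a carbonic anhydrase at the cell surface, had 891 FPKM in A and 153 in B. VEGFA, the vessel growth factor, had 620 and 158, and ERO1L, an oxidase of the endoplasmic reticulum, 1716 and 647. Of the 33 genes above 0 in both libraries, 42.4% were at least 2-fold apart, against 28.7% of all rows. Of all 17238 rows compared, 8991 were higher in A and 8247 in B. In the same libraries the 10 highest rows of the table held 15.6% of FPKM in A and 9.19% in B, and the part of this in the difference was not tested.

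In resistant HCC827, all 17 glycolytic enzymes were higher in library B than in A, 11 of them by at least 2-fold, with a median of 2.33-fold. TPI1 had 5954 FPKM in A and 19261 in B. ALDOA had 5651 and 14642. Of 36 genes above 0 in both, 36.1% were at least 2-fold apart, against 24.8% of all rows, while the other HIF targets were split, with 4 higher in A and 5 in B. Of all 17609 rows compared, 8831 were higher in A and 8778 in B. The 10 highest rows held 8.86% of FPKM in A and 5.30% in B, and the part of this was not tested. The remaining groups were tighter: 5.41% of the genes were at least 2-fold apart in resistant HCC4006 (6.03% of all rows) and 8.82% in HCC827 DMSO (15.7% of all rows). In resistant HCC4006, 15 of 17 enzymes were again higher in library B, by a small median log2 difference, A minus B, of -0.11. There, 9438 of all 18301 rows compared were higher in B. All 8 of the other HIF targets above 0 in HCC827 DMSO were nevertheless higher in A, by a median of 1.63-fold. Of all 16714 rows compared in that group, 9711 were also higher in A, with a median of 1.08-fold over all. With 2 libraries a group, each comparison below stands against this spread.

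**Figure D2:**
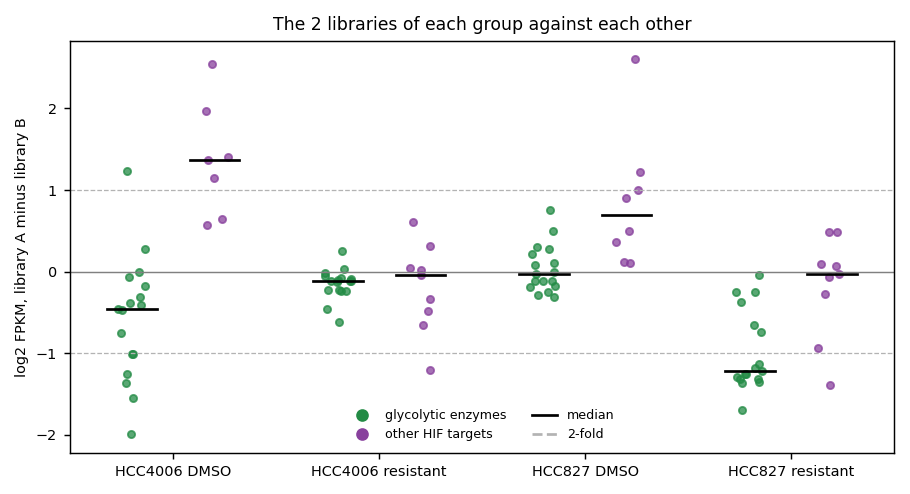
Log2 FPKM of library A minus library B within each group, 1 point a gene above 0 in both libraries. Green points are the 17 glycolytic enzymes, purple points the other HIF targets, black bars medians and dashed lines a 2-fold difference, and the enzymes of resistant HCC827 all lie below 0 while the HIF targets of HCC4006 DMSO all lie above it.

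The first comparison asked which of these genes differed between resistant and DMSO cultures of HCC4006. No gene above 0 in all 4 libraries passed the test, a linear model in limma on log2(FPKM + 0.5) with Benjamini-Hochberg adjusted p below 0.05 over all rows: 0 of 33, where 3.03% of 16484 such rows passed. At an unadjusted p below 0.05 there were 5 of the 33 (SLC2A1, SLC2A3, ALDOC, EGLN3 and ADM), where 16.9% of all such rows were. The 95% intervals, which are not adjusted for the number of rows, had a median half-width of 0.96 on the log2 scale. A call needs an adjusted p below 0.05, so changes larger than that could also go uncalled. ALDOC, at -1.09 with an interval from -1.79 to -0.38, had a limma adjusted p of 0.0999. Of 37 genes tested with those listed at 0 included, 4 passed, where 9.36% of all rows did. All 4 were higher in the resistant culture, where 6.37% of all rows passed in that direction and 2.98% in the other, and all 4 were listed at 0 in DMSO. Their p-values rest on those zeros, so they do not show that the genes rose. In bulk RNA, fewer cells of a type and less RNA per cell cannot be told apart.

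Transport genes of HCC4006 went in different directions by value. SLC2A1, the basal glucose transporter, had 3268 and 2488 FPKM in DMSO and 1736 and 1362 in the resistant culture. The resistant libraries were both lower, a log2 difference of -0.89 (SE 0.26, limma adjusted p = 0.158). SLC2A3, a high-affinity glucose transporter at chr12:8071825-8088871 (hg19, the locus of its row), had 4.24 and 0.56 FPKM in DMSO and 13.5 and 18.0 in the resistant culture. Both resistant libraries were higher, by 2.84 on the log2 scale (SE 0.85, limma adjusted p = 0.165), with 3.92 and an adjusted p of 0.0464 without DMSO library A. It was 1.76 (adjusted p = 0.0877) without DMSO library B and 1.52 (0.0917) with a pseudocount of 5. SLC16A3 was at 1497 and 1755 against 1771 and 1898 FPKM, a difference of 0.18 (limma adjusted p = 0.631).

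Among the 17 glycolytic enzymes of HCC4006, 10 had a positive and 7 a negative log2 difference, with a median of 0.05, and 16 of the 17 lay within 1 log2 unit of 0. The exception was ALDOC, an aldolase isozyme best known from brain, at chr17:26900132-26903952 (hg19). It had 287 and 300 FPKM in DMSO and 117 and 162 in the resistant culture, a difference of -1.09 (SE 0.25, limma adjusted p = 0.0999). HK1, the housekeeping hexokinase, had 278 and 559 FPKM in DMSO and 701 and 757 in the resistant culture, higher in both by 0.88 on average (SE 0.41, limma adjusted p = 0.321). Without DMSO library A the difference was 0.38, and without B 1.39 (0.0402). LDHA had 6975 and 7082 FPKM in the resistant culture, between its 2 DMSO values of 2075 and 8224. Its difference of 0.77 (SE 0.74, limma adjusted p = 0.583) was -0.23 without DMSO library A and 1.76, with an adjusted p of 0.0342, without DMSO library B. PGK1 had 7374 and 7359 FPKM in DMSO and 9032 and 9566 in the resistant culture, a difference of 0.34 (SE 0.18, limma adjusted p = 0.378). Leaving out DMSO library B alone let 4 genes above 0 pass, LDHA, HK1, BNIP3 and P4HA1, in place of 0, while PDK1 no longer passed. Over the whole table, 3565 of 19841 rows passed without that library, against 1860 of 19881 with it.

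The regulators of flux held 2 of the 4 genes called in HCC4006. PFKFB3, which makes the sugar phosphate that activates phosphofructokinase, at chr10:6186842-6277508 (hg19), was listed at 0 in both DMSO libraries and at 400 and 322 FPKM in the resistant ones (limma adjusted p = 0.000489). PDK1, a kinase that inhibits pyruvate dehydrogenase, lies at chr2:173292081-173463862 (hg19). It was listed at 0 in both DMSO libraries and at 220 and 45.5 FPKM in the resistant ones (limma adjusted p = 0.0182). Its locus is shared with ITGA6, an integrin gene, which was also listed at 0 in both DMSO libraries and at 519 and 571 FPKM in the resistant ones. PDK1 no longer passed with a pseudocount of 5 (adjusted p = 0.0589), without DMSO library A (0.114) or without DMSO library B (0.0983). PFKFB4, an enzyme of the PFKFB3 family on a row joined with UCN2, had 29.1 to 53.4 FPKM in the 4 libraries. PDK3, a further kinase of pyruvate dehydrogenase, had 13.6 to 18.0 FPKM. Neither of these differed beyond its spread.

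Of the oxygen-sensing genes, EGLN3, the HIF prolyl hydroxylase most strongly raised by HIF itself, had 127 and 57.5 FPKM in HCC4006 DMSO and 25.7 and 35.6 in the resistant culture. Both resistant libraries were lower, a difference of -1.49 (SE 0.49, limma adjusted p = 0.195), or -0.92 without DMSO library A. EGLN1, the main hydroxylase, had 171 to 300 FPKM, KDM3A, a histone demethylase, 109 to 149, and ANKRD37 17.3 to 26.1, with overlapping groups in each case.

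Among the other HIF targets of HCC4006, CA9 had 891 and 153 FPKM in DMSO and 34.1 and 78.5 in the resistant culture. Both resistant libraries were lower, but the 2 DMSO libraries lay so far apart that the 95% interval of the difference of -2.82 ran from -5.77 to 0.12 (limma adjusted p = 0.232). The difference was -1.56 without DMSO library A and -4.09 without DMSO library B. ADM, which widens vessels, had 225 and 152 FPKM in DMSO and 527 and 344 in the resistant culture, higher in both by 1.20 on the log2 scale (SE 0.35, limma adjusted p = 0.161), or by 0.65 with its 2 rows summed. ERO1L had 1716 and 647 FPKM against 478 and 384, lower in both by value, with a difference of -1.30 (SE 0.55, limma adjusted p = 0.288). It was -0.59 without DMSO library A and -2.0 without DMSO library B. VEGFA had 620 and 158 FPKM in DMSO and 230 and 361 in the resistant culture, inside the DMSO range, a difference of -0.12 (SE 0.78, limma adjusted p = 0.943).

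NDRG1, a stress-response gene, and C7orf68, an older name of the lipid droplet gene HILPDA, were the other called genes of HCC4006. NDRG1 was listed at 0 in both DMSO libraries and at 182 and 228 FPKM in the resistant ones (limma adjusted p = 0.000545). C7orf68, on a row at chr7:128095893-128146656 (hg19) that it shares with METTL2B and another name, was listed at 0 in DMSO and at 225 and 219 FPKM in the resistant culture (limma adjusted p = 0.000501). The value of that row cannot be divided between its names. BNIP3L, a receptor for the removal of mitochondria, was listed at 0 in all 4 HCC4006 libraries, while its relative BNIP3 had 335 and 216 FPKM in DMSO and 177 and 182 in the resistant culture. P4HA1 and P4HA2, subunits of the enzyme that hydroxylates collagen, had 309 to 799 and 411 to 1225 FPKM with overlapping groups. P4HA2 shares its row with AC063976.6.

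In HCC827 the same comparison gave no call among genes above 0 either: 0 of 34, where 0.999% of 15917 such rows passed. At an unadjusted p below 0.05 there were 4 of the 34 (SLC2A3, ALDOC, EGLN3 and VEGFA), where 12.1% of all such rows were. The median half-width of the 95% intervals was 1.10 on the log2 scale. With genes listed at 0 included, 2 of 37 passed, where 6.80% of all rows did. Both were higher in the resistant culture, where 5.13% of all rows passed in that direction and 1.67% in the other. Of the 34 genes, 14 had a positive and 20 a negative difference, with a median of -0.20 against -0.10 over all rows above 0. In HCC4006 these counts were 17 and 16 of 33, with a median of 0.04 against -0.04.

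**Figure D3:**
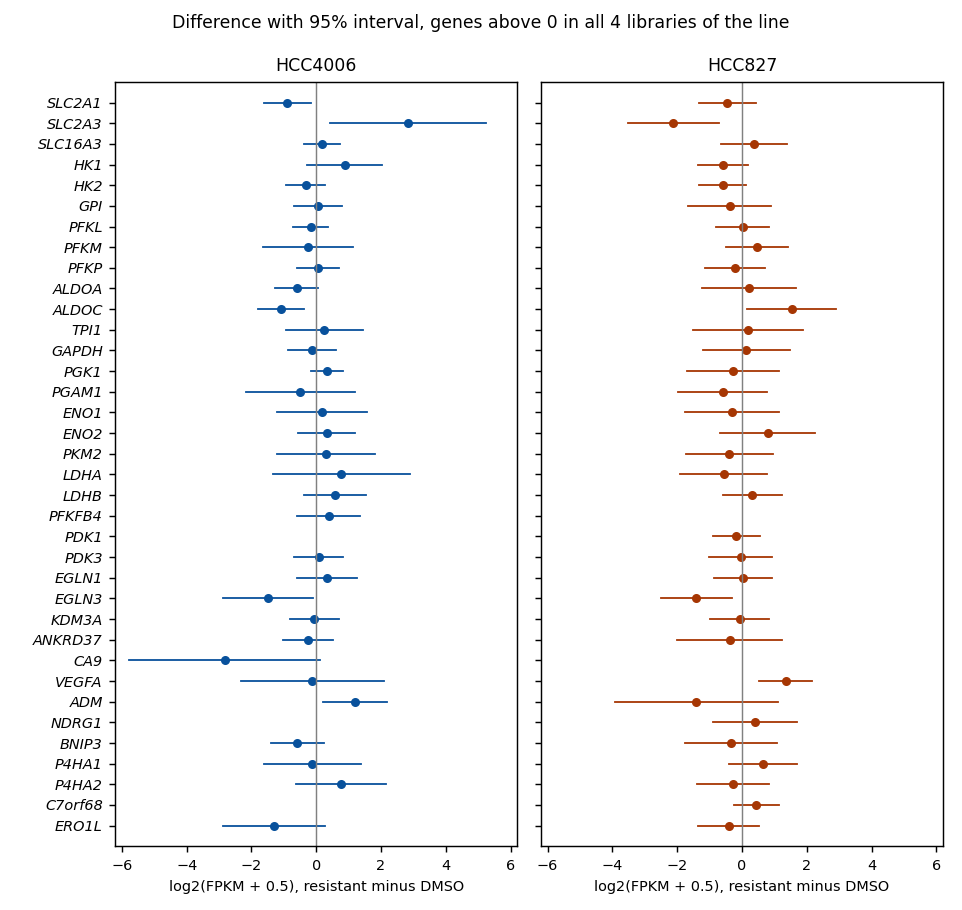
Log2(FPKM + 0.5) of the resistant minus the DMSO culture with its 95% interval from limma, for each gene above 0 in all 4 libraries of the line, HCC4006 left and HCC827 right. Of the intervals, 5 of 33 in HCC4006 and 4 of 34 in HCC827 stay clear of 0, and those of SLC2A3 and ALDOC do so on opposite sides in the 2 lines.

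Both glucose transporters were lower by value in resistant HCC827. SLC2A1 had 2598 and 1912 FPKM in DMSO and 1844 and 1426 in the resistant culture, a difference of -0.46 (SE 0.33, limma adjusted p = 0.535). SLC2A3 had 133 and 52.6 FPKM in DMSO and 17.7 and 20.2 in the resistant culture, a difference of -2.12 (SE 0.53, limma adjusted p = 0.127). The SLC2A3 groups did not overlap, and in HCC4006 its order was the reverse. The 17 enzymes had 8 positive and 9 negative differences, and 16 of 17 lay within 1 log2 unit of 0. ALDOC was again the exception, with 78.7 and 97.8 FPKM in DMSO and 163 and 404 in the resistant culture, a difference of 1.54 (SE 0.52, limma adjusted p = 0.226), or 0.89 without resistant library B. HK1 had 423 and 349 FPKM in DMSO and 235 and 279 in the resistant culture, lower in both by value, with a difference of -0.58 (SE 0.29, limma adjusted p = 0.381). LDHB, the only enzyme with higher values in both resistant libraries of both lines, had 14017 and 14296 FPKM in HCC827 DMSO and 15542 and 20089 in its resistant culture. Its difference there was 0.32 (limma adjusted p = 0.660), and in HCC4006, with 4798 and 8081 against 10135 and 8541 FPKM, 0.58 (limma adjusted p = 0.416).

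PFKFB3 passed in HCC827 through the same pattern as in HCC4006, with a p-value that again rests on zeros: it was listed at 0 in both DMSO libraries and at 796 and 521 FPKM in the resistant ones (limma adjusted p = 0.000466). No other gene of the 38 was called in both lines. BNIP3L was the second call and of the same kind, listed at 0 in both DMSO libraries and at 672 and 631 FPKM in the resistant ones (limma adjusted p = 0.000442). Its locus also holds PPP2R2A and PNMA2, which were listed at 0 in the same 6 libraries as BNIP3L and at 678 and 510 FPKM and 207 and 71.0 FPKM in the resistant HCC827 libraries. Without DMSO library A neither gene passed (adjusted p = 0.0739 for both), nor without DMSO library B (0.0609 for both), and no row of the whole table passed in either case. PDK1 had 235 and 217 FPKM in DMSO and 187 and 214 in the resistant culture, above 0 throughout. PFKFB4 was listed at 0 in all 4 HCC827 libraries.

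VEGFA had the lowest unadjusted p of the HCC827 genes above 0. It had 394 and 365 FPKM in DMSO and 1139 and 820 in the resistant culture, higher in both by 1.35 on the log2 scale or 2.55-fold (SE 0.31, limma adjusted p = 0.1). EGLN3 had 1082 and 708 FPKM in DMSO and 255 and 427 in the resistant culture, lower in both by value, with a difference of -1.41 (SE 0.41, limma adjusted p = 0.177), close to its -1.49 in HCC4006. ADM had 210 and 34.6 FPKM in DMSO and 23.0 and 44.0 in the resistant culture, with overlapping groups (-1.41, limma adjusted p = 0.514). That difference was -0.12 without DMSO library A and -2.70 without DMSO library B. CA9 was listed at 0 in 3 libraries and at 5.83 FPKM in resistant library B. NDRG1 had 734 to 1707 FPKM, BNIP3 289 to 756, P4HA1 191 to 421, P4HA2 410 to 818, C7orf68 323 to 459 and ERO1L 1300 to 2440. EGLN1 had 183 to 267 FPKM, KDM3A 147 to 221, ANKRD37 14.8 to 46.1 and PDK3 59.2 to 99.3.

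Counted by overlap alone, 6 of the 33 genes above 0 were higher and 9 lower in both resistant HCC4006 libraries than in both DMSO libraries, where 22.7% and 28.3% of all such rows were. In HCC827, 6 of 34 were higher and 6 lower, where 20.2% and 26.3% of all such rows were. As shares of the genes, all 4 counts were below those of all rows.

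The second comparison asked whether the change differed between the lines, taken over all 8 libraries as the HCC827 change minus that of HCC4006. 6 of 38 genes passed, where 12.1% of all rows did: ALDOC and BNIP3L with the higher change in HCC827, where 6.27% of all rows passed, and SLC2A3, PDK1, NDRG1 and C7orf68 with the lower, where 5.82% did. Of 31 genes above 0 in all libraries, 2 passed (SLC2A3 and ALDOC), where 4.89% of such rows did. At an unadjusted p below 0.05 there were 3 of the 31 (HK1 with those 2), where 19.2% of such rows were. The SLC2A3 change in HCC827 less that in HCC4006 was -4.96 on the log2 scale (SE 1.10, limma adjusted p = 0.0365), with higher values in resistant HCC4006 and lower values in resistant HCC827. Its near-identical paralog SLC2A14 could share its reads and was listed at 1.03 and 0 FPKM in HCC4006 DMSO, 3.70 and 4.53 in resistant HCC4006, 25.9 and 12.2 in HCC827 DMSO and 6.59 and 4.59 in resistant HCC827, so the SLC2A3 values are uncertain. The ALDOC change was higher in HCC827 by 2.63 (SE 0.63, limma adjusted p = 0.0471).

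These 2 calls were close to the threshold. In a fit over the rows above 0 alone, where 1.45% of rows passed, the adjusted p was 0.0608 for SLC2A3 and 0.0795 for ALDOC. With 1 library left out at a time, SLC2A3 kept its direction with adjusted p between 0.0132 and 0.181 and passed only without HCC4006 DMSO library A or B. ALDOC kept its direction with adjusted p between 0.0087 and 0.207 and passed only without resistant HCC827 library A or B.

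HK1 (-1.47, SE 0.50, limma adjusted p = 0.130), VEGFA (1.47, SE 0.90, adjusted p = 0.371) and ADM (-2.61, SE 1.19, adjusted p = 0.242) did not pass in this contrast. Without HCC4006 DMSO library B, HK1 (-1.97, adjusted p = 0.0148) and VEGFA (2.46, 0.0352) passed, while without HCC4006 DMSO library A they were at -0.97 and 0.49. ADM passed without HCC827 DMSO library B (-3.90, limma adjusted p = 0.0386), and was at -1.32 without HCC827 DMSO library A and at -1.54 with its 2 rows summed. The other 4 calls came from groups listed at 0: C7orf68 (limma adjusted p = 1.84e-05), BNIP3L (3.53e-05), NDRG1 (0.00023) and PDK1 (0.00324). The median half-width of the 95% intervals in this contrast was 1.60 on the log2 scale.

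**Figure D4:**
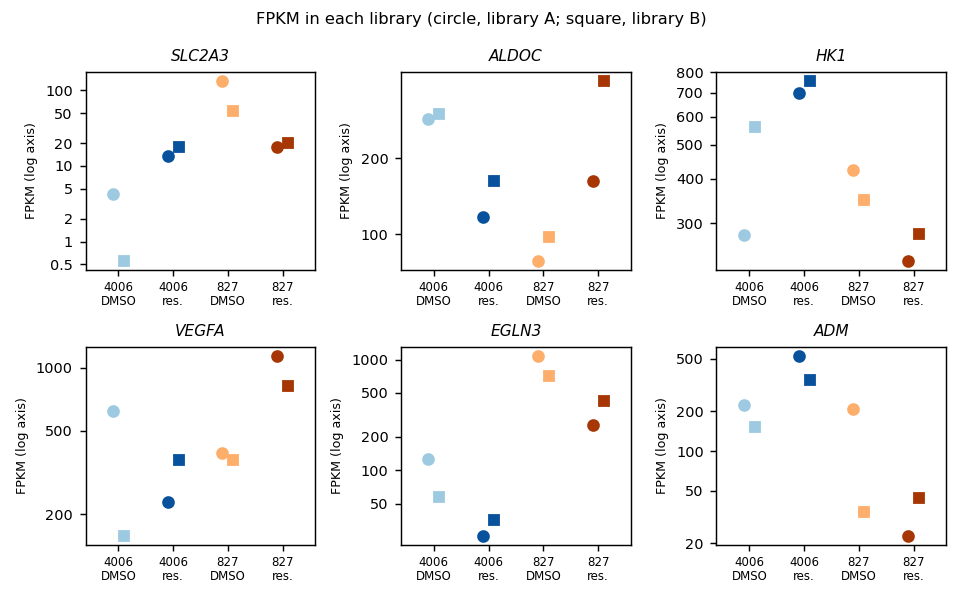
FPKM of 6 genes in each library, on log axes with a scale of its own for each gene. Circles are library A, squares library B, and columns are HCC4006 DMSO, HCC4006 resistant, HCC827 DMSO and HCC827 resistant, with SLC2A3, ALDOC and HK1 ordered in opposite ways in the 2 lines and EGLN3 lower in the resistant culture of both.

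Shares of isozymes within a library do not depend on its scale, and for phosphofructokinase they lay further apart between the lines than between treatments. PFKP, its platelet-type isozyme, made up 77.6% and 84.8% of the FPKM of PFKL, PFKM and PFKP in HCC4006 DMSO, 84.5% and 84.0% in resistant HCC4006, 62.8% and 64.0% in HCC827 DMSO and 53.7% and 59.0% in resistant HCC827. The HCC4006 shares were all above the HCC827 shares. HK2, the inducible hexokinase, made up 40.4% and 21.8% of HK1 and HK2 in HCC4006 DMSO. In resistant HCC4006 it made up 16.5% and 15.1%, lower without overlap, against 33.0% to 39.5% in HCC827. HKDC1 is not counted in this share. LDHB made up 58.7% and 54.2% of LDHA and LDHB in HCC827 DMSO and 75.9% and 64.4% in its resistant culture, where both shares were higher. In HCC4006 the LDHB share of 59.2% and 54.7% in the resistant culture lay between the DMSO shares of 69.8% and 49.6%. ENO2, the neuronal enolase, made up 3.83% and 1.94% of ENO1 and ENO2 in HCC827 DMSO and 5.79% and 5.54% in its resistant culture. In HCC4006 the ENO2 shares overlapped, with 2.58% and 1.35% in DMSO and 1.69% and 2.48% in the resistant culture. ALDOC made up 0.957% and 1.28% of ALDOA and ALDOC in HCC827 DMSO and 2.80% and 2.69% in its resistant culture, 2 shares that lay close together although ALDOC itself was at 163 and 404 FPKM there. In HCC4006 the ALDOC share was 4.40% and 3.50% in DMSO and 2.51% and 3.20% in the resistant culture. These shares are given without a test.

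**Figure D5:**
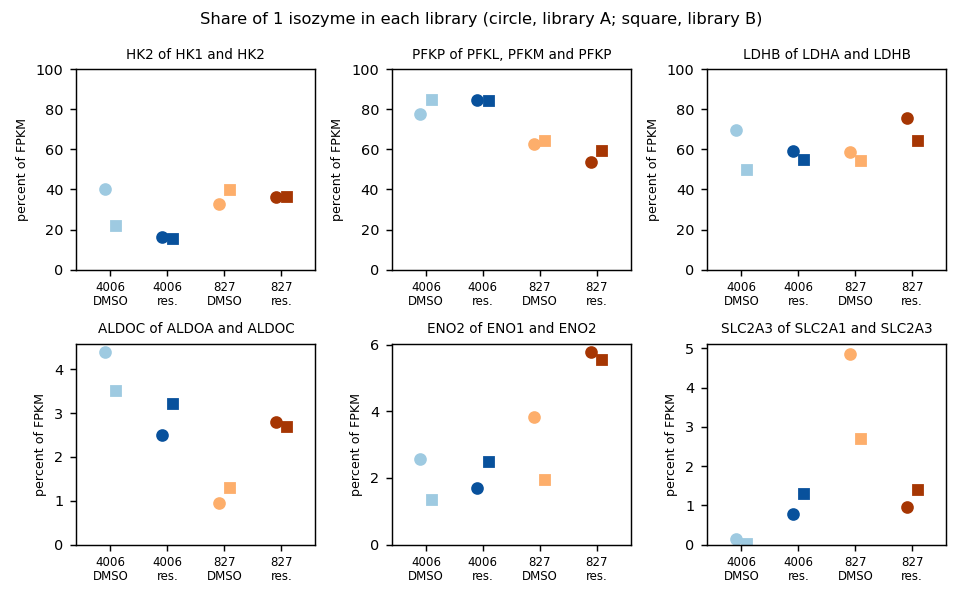
Share of 1 isozyme in the summed FPKM of its family in each library, in percent, with an axis from 0 in each panel and a scale of its own in the lower row. Circles are library A and squares library B, and the ALDOC shares of the 2 resistant HCC827 libraries nearly coincide above both DMSO shares.

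Between the lines, levels are a description only, since the 2 tables may have been normalized separately. Of the 31 genes above 0 in all 8 libraries, 3 had all 4 HCC827 libraries above all 4 HCC4006 libraries. These were EGLN3, with a median 12.2 times that of HCC4006, PDK3, 5.28 times, and LDHB, 1.80 times. PFKP alone lay the other way, its HCC4006 median 2.92 times that of HCC827. The other 27 overlapped between the lines. For the genes with values listed at 0, no order between the lines is given.

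Related genes outside the 38 were counted by list. In HCC4006, 0 of 17 further genes of glycolysis and gluconeogenesis above 0 passed, 0 of 9 for pyruvate entry into mitochondria, 0 of 7 of the pentose phosphate pathway, 1 of 14 HIF factors and regulators, 1 of 36 further HIF targets and 0 of 9 glucose and growth regulators, where 3.03% of all rows above 0 passed. In HCC827 these counts were 0 of 14, 0 of 10, 0 of 8, 0 of 13, 1 of 34 and 0 of 9, where 0.999% did. ENO3, SLC16A1 and DLAT in HCC4006, and C12orf5, ENO3, HIF1AN and BHLHE40 in HCC827, were among the genes that passed only with a group listed at 0.

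ARNT2, a partner of the HIF alpha subunits, was the factor that rose in HCC4006. It had 13.1 and 8.60 FPKM in DMSO and 63.1 and 61.8 in the resistant culture, a difference of 2.50 (SE 0.30, limma adjusted p = 0.0206). Without resistant library A or B it no longer passed (0.330 and 0.331), nor in the fit over rows above 0 alone (0.075). LOXL2, which crosslinks collagen, shares its row with ENTPD4, and the value cannot be divided between them. That row rose by 1.13 (SE 0.19, limma adjusted p = 0.049), with 1075 and 947 FPKM in DMSO and 2156 and 2274 in the resistant culture. It no longer passed without DMSO library A (0.0512) or resistant library A (0.330) or B (0.356), over rows above 0 alone (0.127), with no variance trend (0.0806) or with a pseudocount of 1 (0.0514) or 5 (0.0555). RORA, a nuclear receptor, fell by 2.98 in HCC827 (SE 0.51, limma adjusted p = 0.0421), from 10.5 and 13.6 FPKM to 1.47 and 0.759. With any 1 library of the 4 left out its adjusted p was 0.114 to 0.234, and it was 0.114 over rows above 0 alone.

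The HIF alpha subunits did not pass. HIF1A, the main alpha subunit, had 1891 and 1931 FPKM in HCC4006 DMSO and 2495 and 2412 in its resistant culture, a difference of 0.36 (SE 0.17, limma adjusted p = 0.339). In HCC827 it had 2778 and 3364 against 4919 and 3107 FPKM, a difference of 0.35 (SE 0.37, limma adjusted p = 0.648). EPAS1, the second alpha subunit, had 223 to 1041 FPKM in HCC4006 and 349 to 962 in HCC827, and VHL 112 to 145 and 121 to 188. MYC, which also drives glycolytic genes, had 65.6 and 43.6 against 111 and 78.9 FPKM in HCC4006 (0.81, limma adjusted p = 0.281) and 1022 and 1126 against 868 and 769 in HCC827 (-0.39, limma adjusted p = 0.525). TXNIP, which lowers glucose uptake and is raised by glucose, lay far apart between libraries of 1 group, with 127 and 971 FPKM in HCC4006 DMSO and 87.2 and 559 in resistant HCC827.

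In the contrast between the lines, the pentose phosphate pathway, which branches from glycolysis to make NADPH and ribose, had 2 calls among its 7 genes above 0, where 4.89% of such rows passed. In the fit over rows above 0 alone, where 1.45% passed, PGLS was its 1 call. PGLS, its second enzyme, had 412 and 316 FPKM in HCC4006 DMSO, 155 and 136 in resistant HCC4006, 166 and 153 in HCC827 DMSO and 487 and 350 in resistant HCC827. Its change was higher in HCC827 by 2.68 (SE 0.36, limma adjusted p = 0.0046), and it passed in all 18 alternatives run for it, with adjusted p from 0.00319 to 0.0339. TKT, which hands carbon back to glycolysis, had a change higher by 1.44 (SE 0.31, limma adjusted p = 0.0321), but 0.118 in the fit over rows above 0 alone. Its FPKM were 2666 and 2020, then 1384 and 1364 in HCC4006, and 1362 and 1398, then 2204 and 2223 in HCC827. DLD, a subunit of pyruvate dehydrogenase (-1.44, SE 0.32, limma adjusted p = 0.0357), and RORA (-3.21, SE 0.77, adjusted p = 0.0478) were the other calls above 0. Over rows above 0 alone they were at 0.110 and 0.0896. The other lists gave 0 of 13, 0 of 13 and 0 of 9 above 0. With 1 library left out, TKT had adjusted p up to 0.110, DLD up to 0.121 and RORA up to 0.191.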

How the data were processed

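Polyadenylated RNA was sequenced from 8 libraries, 2 in each of 4 groups, after miRNeasy extraction and TruSeq RNA v2 preparation, a kit that does not mark strand, per the labels' protocols. The authors deposited gene-level FPKM in 1 table a line, with 48405 rows. Per the submitters' processing notes, hg19, TopHat 1.4.1, Cufflinks 1.3.0 and Cuffdiff were used; which annotation and options is not given in the sources used here. Column letters A and B were not tied to the labels' replicate numbers. Values were tested with limma 3.58.1 in R 4.3.3 (mean-variance trend) on log2(FPKM + 0.5), for rows whose mean reached 0.5 FPKM, each line alone, and all 8 libraries for the contrast between lines; p-values were adjusted by Benjamini-Hochberg over all rows, and a log2 difference on this scale understates changes of low genes. The procedure was tested on simulated data with the same noise in every library and no group set to 0. That simulation does not cover the listed zeros or the uneven spread between libraries seen here. No count test was run, since FPKM are not counts. ADM stood on 2 rows, and the row with the higher mean was used; 3 genes stood on rows with other names. The genes and lists were chosen with earlier results of these data known. Named were all 38 genes, and of the other lists those called and above 0 in every library, with HIF1A, EPAS1, VHL, MYC and TXNIP; LDHB, HK1, VEGFA and the other genes given in full without a call were picked after their values were seen. Alternatives covered pseudocount, filter, scaling, variance prior, block, row choice and each library left out.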

Additional observations from a re-analysis of the deposited data

Results flagged for a closer look

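In the contrast between lines (limma over 8 libraries with Benjamini-Hochberg adjustment), which tests whether the change from DMSO to resistant culture differs between HCC827 and HCC4006, 6 of the 38 genes passed, where 12.1% of all rows did. SLC2A3 had an adjusted p of 0.0365 and ALDOC of 0.0471, both above 0 in every library, where 4.89% of such rows passed. In the fit over rows above 0 alone they were at 0.0608 and 0.0795. PDK1 had an adjusted p of 0.00324, NDRG1 of 0.00023, BNIP3L of 3.53e-05 and C7orf68 of 1.84e-05, each with at least 1 group, and BNIP3L with 3 of 4, listed at 0 in both libraries. These 4 p-values rest on listed zeros, which can be failed estimates, and do not show that the change differed.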

How the results depend on the processing

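Over 45 named results and 704 alternatives, 621 kept direction and side of the threshold, 74 kept direction but no longer passed, 6 newly passed and 3 changed sign. Most of the 45 were not called in the main fit, so keeping their side of the threshold is a weak check. Summing the rows of a gene changed the row of ADM alone. Of the calls above 0, PGLS kept its call in all 18 alternatives. Within a line, calls were lost in 3 for ARNT2, 8 for LOXL2 and 5 for RORA. In the contrast they were lost in 8 for SLC2A3, 10 for TKT and 11 each for ALDOC, DLD and RORA. The sign changes were LDHA in HCC4006 (0.77 to -0.23 without DMSO library A, and 1.76 without B) and VEGFA in HCC4006 (-0.12 to 0.86 without DMSO library A, -1.11 without B and 0.20 without resistant library A). Genes called fell to 0 in both lines and in the contrast when rows with a 0 were left out, by construction for genes listed at 0. The contrast's 2 calls above 0 became 1 with no filter, with median scaling or with no variance trend, and 0 with rows above 0 alone or with the replicate block; the cause was not tested. Leaving out 1 library at a time gave 4 to 7 calls in HCC4006 (0 to 4 above 0), 0 to 3 in HCC827, and 0 to 3 above 0 in the contrast, the lone library of a group being assumed to vary like the other groups. With the replicate block by column letter, the calls were 4 in HCC4006, 2 in HCC827 and 4 in the contrast, and LOXL2 in HCC4006 had an adjusted p of 0.167. Same-letter deviations correlated at -0.078 in HCC4006 and 0.206 in HCC827, so the letters were not taken to pair the libraries. Quantile normalization moved the median of all rows to -0.19 in HCC4006 and -0.24 in HCC827, from -0.01 and -0.04. Depth is unknown, and 2 libraries a group limit every interval.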
